A study of Mus musculus with 3 samples.

Results

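The cells described here are epithelial cells of the mouse urogenital sinus and young prostate that carried transcripts of several genes known from the surface layer of stratified urogenital epithelia. A cell was selected when it had a value above 0 for at least 3 of 6 markers (*Upk3b*, *Ivl*, *Sprr2f*, *Wfdc15b*, *Folr1* and *Ctse*) and when its values of *Cdh1* and *Cldn4* (an epithelial cadherin and a claudin) summed to more than those of *Col1a2* and *Col3a1* (fibrillar collagens of stroma). Of 14573 cells, 106 met this rule. They were named beforehand as urothelium-like superficial epithelial cells, and by the rate of *Upk1a* alone that name held for only some of them. The rule collected 2 kinds of cell, 1 with *Upk3b*, *Ivl* and the uroplakin *Upk1a*, and 1 with *Sprr2f*, *Folr1*, *Wfdc15b* and almost no *Upk1a*.

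Droplet-based single cell RNA sequencing was done on 3 samples of normal tissue, 1 library each: male urogenital sinus at embryonic day E18.5 and prostate at postnatal days P14 and P35. The labels give no genotype, strain or number of animals for these libraries, and the study's methods give a mixed C57BL/6 and 129S1/SvImJ background for its experimental mice. Tissue was trimmed and dissociated with collagenase and TrypLE, so that cells of neighbouring tissue could be in each suspension. The 3 sets of cell barcodes (endings 1, 2 and 3) are tied to no sample by any label, so the sets are given side by side and no difference between ages is drawn. With 1 library for each sample there is no replicate, no test and no p-value, and every interval below is a 95% interval for counting error only.

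In the urothelium, the lining of the bladder and urethra, basal cells lie on the basement membrane and give rise to intermediate cells and then to a superficial layer. Superficial cells carry plaques of uroplakins, membrane proteins that help to seal the surface, while involucrin and the small proline-rich (Sprr) proteins are precursors of the cornified envelope made by stratified squamous epithelia. The prostate buds from the urogenital sinus, so that prostatic ducts and urethral lining are continuous tissue. *Upk3b* is also known from the mesothelium, the lining of body cavities. Several genes that define superficial urothelium, such as *Upk2* and *Krt20*, were not analysed here.

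The selected cells made up 5.35% (3.87 to 7.19) of set 1 (41 of 766 cells), 0.43% (0.273 to 0.644) of set 2 (23 of 5350) and 0.497% (0.358 to 0.671) of set 3 (42 of 8457), with exact binomial intervals. Among epithelium-gated cells (*Cdh1* plus *Cldn4* above *Col1a2* plus *Col3a1*) the shares were 26.6% (19.8 to 34.3) of 154 cells, 1.71% (1.09 to 2.55) of 1347 and 1.63% (1.18 to 2.19) of 2579. Only 1, 2 and 0 stroma-gated cells carried 3 or more of the markers. Selected cells were deep: their median number of unique molecular identifiers (UMIs) was 62401 in set 1, 7272 in set 2 and 13815 in set 3, against 32362, 4009.5 and 3977 in the other epithelium-gated cells and 17242, 1492 and 1503.5 in stroma-gated cells. A rule that asks for 3 detected genes is met more easily by a deep cell, and thinning of cells to a fixed depth lowered the number selected. At 3000 UMIs 6 of 708, 13 of 1414 and 28 of 2202 cells were selected (0.847%, 0.919% and 1.27%), with 58, 3936 and 6255 shallower cells left out, so that these shares are over other cells than the shares above. At 900 UMIs 0 of 759, 6 of 5008 and 6 of 7667 were selected (0%, 0.120% and 0.0783%). No selected cell shared its barcode with a cell of another set, and none was among the 30, 203 and 378 cells above the 95th percentile of doublet scores of their set. The median doublet score was nevertheless higher in selected cells (0.0534, 0.0848 and 0.0864) than in other epithelium-gated cells (0.0401, 0.0411 and 0.0402), and the part of doublets was not tested.

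The 6 markers did not occur together. In set 1 all 41 cells had more of the pair *Upk3b* and *Ivl* than of the pair *Sprr2f* and *Folr1*, and the combination *Upk3b*, *Ivl*, *Wfdc15b* and *Ctse* alone accounted for 22 of them. In set 2 the reverse was seen in 22 of 23 cells, and *Upk3b* had 0 UMIs in all 5350 cells of that set. Set 3 held both kinds, 9 cells on the *Upk3b* and *Ivl* side, 32 on the *Sprr2f* and *Folr1* side and 1 with both pairs evenly detected, as was 1 cell of set 2. This division was chosen after the values had been seen, so it is a description and was not tested. In set 3 no cell had both *Upk3b* and *Sprr2f* (9 had only the first and 31 only the second), and none had both *Upk3b* and *Folr1*.

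**Figure D1:**
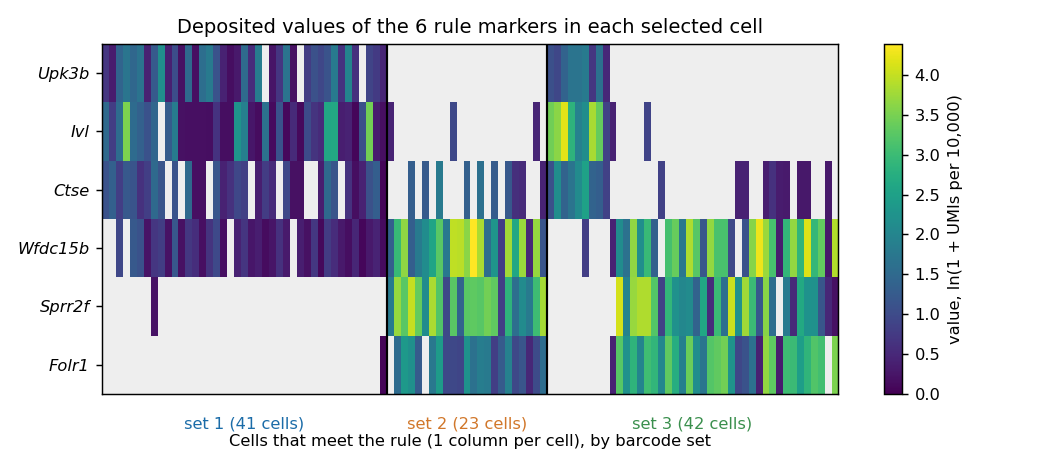
Values of the 6 rule markers as deposited, the natural log of 1 plus UMIs per 10000, in each of the 106 selected cells (columns, grouped by barcode set and, within a set, by kind and depth), with 0 in grey. *Upk3b* and *Ivl* fill the upper rows in set 1 and in 9 cells of set 3, whereas *Sprr2f* and *Folr1* fill the lower rows in set 2 and the rest of set 3.

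*Upk3b*, which encodes uroplakin 3B, was detected in 38 of 41 selected cells of set 1, with values of 0 to 2.17 and a median of 0.79, and in 9 of 42 of set 3. Summed over cells it stood at 192 CPM (176 to 209) in set 1, where CPM is UMIs per 1000000 UMIs of all genes, and at 32.4 CPM (20.3 to 49.0) in set 3. *Ivl*, which encodes involucrin, was found in 40 of 41 cells of set 1, 3 of 23 of set 2 and 11 of 42 of set 3, at 371, 15.3 and 283 CPM. The cells of set 1 spanned a wide range of *Ivl*, from 0 to 3.53 with a median of 0.65, and the 9 *Upk3b* and *Ivl* cells of set 3 ranged from 0.85 to 4.20 with a median of 3.35. *Ctse*, the intracellular aspartic protease cathepsin E, was detected in 33 of 41, 10 of 23 and 19 of 42 cells, and in set 3 in 9 of 9 *Upk3b* and *Ivl* cells and 10 of 32 *Sprr2f* and *Folr1* cells.

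*Sprr2f*, a small proline-rich protein gene, was detected in 23 of 23 selected cells of set 2 (values 0.81 to 4.0, median 3.24) and in 31 of 42 of set 3, but had only 1 UMI in the 41 cells of set 1. *Folr1*, a folate receptor gene, followed the same division, with 1 UMI in set 1, 305 CPM (233 to 393) in set 2 and 1383 CPM (1296 to 1475) in set 3. *Wfdc15b*, which encodes a small protein with a WAP domain, was detected in 36 of 41 cells of set 1 at 54.7 CPM, in 23 of 23 of set 2 at 2173 CPM and in 32 of 42 of set 3 at 2128 CPM. Its level was thus low in the *Upk3b* and *Ivl* cells and high in the others. In stroma-gated cells, which should lack these genes, the share of cells with a UMI was at most 1.31% for *Ivl* and *Folr1*, 1.12% for *Upk3b* and 0.374% for *Ctse* and *Wfdc15b*, each in set 1, and 0.166% for *Sprr2f* in set 2. Sprr2 genes are near-identical copies in a tandem cluster, so that reads could be divided among them and the *Sprr2f* level is uncertain.

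The values just inside and outside the threshold were as follows, with no test. In set 1, the 17 cells with exactly 3 markers had *Ivl* at 213 CPM and the 26 epithelium-gated cells with 2 markers at 66.5 CPM. In set 2, *Sprr2f* stood at 1320.2 CPM in 12 cells with 3 markers and at 549.7 CPM in 10 cells with 2. In set 3, *Folr1* stood at 1247 CPM in 34 cells with 3 markers and at 492 CPM in 53 cells with 2. The reverse held for *Ivl* in set 2, at 11.4 CPM in the cells with 3 markers and 246 CPM in those with 2. The number of markers chose these cells, so the differences are a property of the rule.

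**Figure D2:**
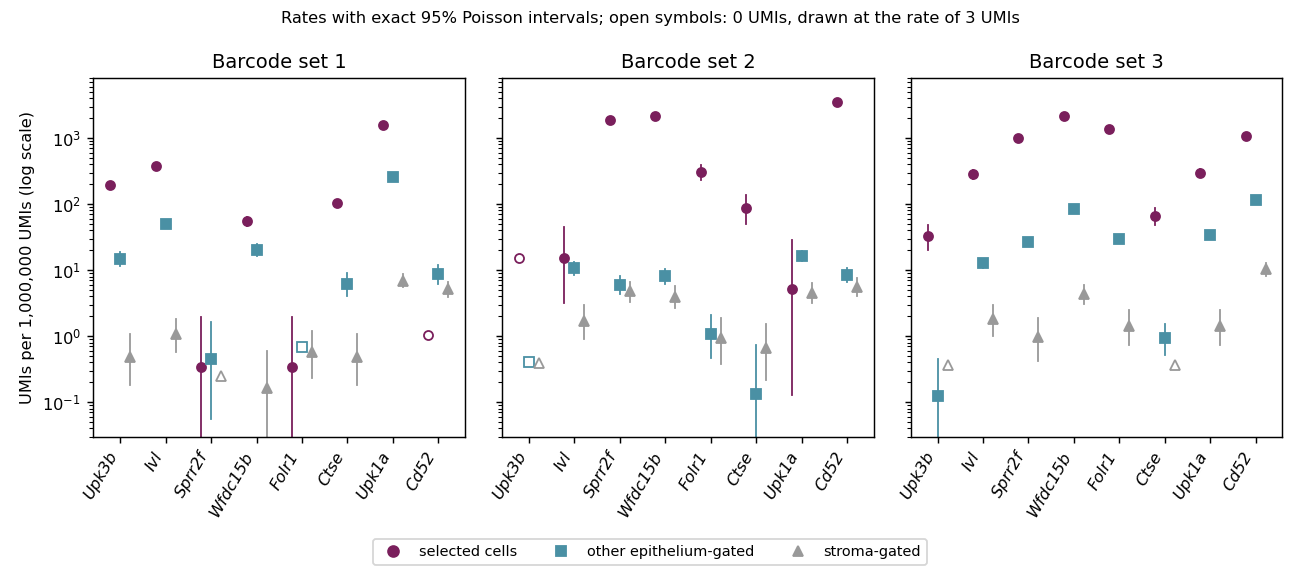
Rates of the 6 rule markers, *Upk1a* and *Cd52* in UMIs per 1000000 UMIs (log scale) in selected cells, other epithelium-gated cells and stroma-gated cells of each barcode set, with exact 95% Poisson intervals for counting error. *Upk3b* and *Upk1a* were high in selected cells of set 1, *Sprr2f*, *Folr1* and *Cd52* in those of set 2, and all 5 in set 3, where both kinds are summed.

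The sequences upstream of the markers are shown because the 2 pairs of genes mark different cells. RefSeq promoter windows were found for 4 of the 6 markers, and the bases before the annotated gene start are printed on the gene's strand for GRCm38.p6, the assembly of mm10. In this assembly the 6 genes lie on chromosome 5 from 136038496 to 136044993 (*Upk3b*), chromosome 3 from 92570899 to 92573790 (*Ivl*) and from 92365187 to 92366442 (*Sprr2f*), chromosome 2 from 164214454 to 164221663 (*Wfdc15b*), chromosome 7 from 101858331 to 101870788 (*Folr1*) and chromosome 1 from 131638314 to 131675507 (*Ctse*). The printed windows are chr5:136038246-136038495 (*Upk3b*, plus strand), chr3:92573791-92573985 (*Ivl*, minus strand), chr3:92364937-92365186 (*Sprr2f*, plus strand) and chr2:164221664-164221913 (*Wfdc15b*, minus strand), all outside the transcribed gene. Windows of 250 bases were searched on both strands for the AP-1 motif (TGANTCA), the motif of GATA factors and the grainyhead motif (AACCNGTT), and capitals mark the matches, none of which overlap. These motifs occur in 6.75%, 6.55% and 1.79% of 32851 mouse windows of the same length.
Upk3b: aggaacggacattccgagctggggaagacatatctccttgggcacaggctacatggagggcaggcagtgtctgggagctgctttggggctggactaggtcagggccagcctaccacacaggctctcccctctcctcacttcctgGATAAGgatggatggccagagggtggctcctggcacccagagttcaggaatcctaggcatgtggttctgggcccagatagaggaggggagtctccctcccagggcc
Ivl: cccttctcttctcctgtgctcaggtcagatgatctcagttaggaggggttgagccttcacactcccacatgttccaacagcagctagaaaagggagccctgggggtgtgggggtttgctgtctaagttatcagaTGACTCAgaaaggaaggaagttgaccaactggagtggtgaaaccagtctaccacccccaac
Sprr2f: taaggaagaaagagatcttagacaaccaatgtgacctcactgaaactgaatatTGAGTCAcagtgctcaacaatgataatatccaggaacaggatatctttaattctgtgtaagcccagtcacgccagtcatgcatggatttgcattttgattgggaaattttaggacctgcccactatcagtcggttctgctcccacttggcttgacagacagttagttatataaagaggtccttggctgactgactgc
Wfdc15b: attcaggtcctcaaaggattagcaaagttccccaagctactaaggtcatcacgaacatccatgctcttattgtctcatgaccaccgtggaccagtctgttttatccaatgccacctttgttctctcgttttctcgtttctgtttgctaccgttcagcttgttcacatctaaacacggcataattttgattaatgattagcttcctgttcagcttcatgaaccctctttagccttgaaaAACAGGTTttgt
*Upk3b* held the GATA motif, searched as GATAAG, *Ivl* and *Sprr2f* each an AP-1 motif and *Wfdc15b* the grainyhead motif on the other strand. AP-1 letters were thus present upstream of 1 marker of each kind of cell. A match is a description of letters and not a binding site.

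*Upk1a*, a tetraspanin of the uroplakin plaque that the rule did not use, divided the cells in the same way. It stood at 1578 CPM (1532 to 1624) in the selected cells of set 1, where 38 of 41 had a UMI and values ran from 0 to 4.03 with a median of 2.60. In set 3 it was present in 9 of 9 *Upk3b* and *Ivl* cells, at 2561 CPM (2220.4 to 2938), and had 0 UMIs in the 32 *Sprr2f* and *Folr1* cells, which allows a rate of up to 5.17 CPM. Up to 9.38% of such cells could hold a UMI by that count, which sets no limit on the share that express the gene. These limits, like others below for a count of 0, are those of 3 UMIs or 3 cells and not exact intervals. In set 2 *Upk1a* had 1 UMI in 23 cells. Other epithelium-gated cells had 257, 16.4 and 34.1 CPM, with a UMI in 67 of 113, 78 of 1324 and 274 of 2537 cells, and stroma-gated cells 6.96, 4.51 and 1.45 CPM. *Upk3bl*, the only other uroplakin gene with a row, was at 553 CPM in selected cells of set 1 against 294 CPM in other epithelium-gated cells and had 0 and 4 UMIs in sets 2 and 3. It resembles *Upk3b* in sequence, so reads could be divided between them. By the summed rate of *Upk1a* alone the label held for the selected cells of set 1 and 9 cells of set 3. In the *Sprr2f* and *Folr1* cells that rate was not above the level of other epithelium-gated cells. The superficial and intermediate surface genes with a row did not follow *Upk1a* in set 1, with sums of 880 CPM in selected and 1142 CPM in other epithelium-gated cells. Of 10 urothelial transcription factors compared there, 1 was at least 2-fold higher.

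In set 3, where both kinds came from 1 library, 1013 genes with at least 50 UMIs over the 2 kinds could be compared. Median depths were 6785 UMIs in the 9 *Upk3b* and *Ivl* cells and 18024.5 in the 32 others, and the part of depth in the ratios between them was not tested. Of these genes, 11.5% were at least 2-fold higher in the 9 *Upk3b* and *Ivl* cells and 22% at least 2-fold higher in the 32 *Sprr2f* and *Folr1* cells, a rule of size without a test. Besides *Upk1a*, the genes furthest to the side of the *Upk3b* and *Ivl* cells were *Wfdc2*, a secreted WAP protein, at 4755 against 8.61 CPM, a log2 ratio of 9.11 [7.87 to 10.74] with its exact interval in brackets, and *Sprr2a3*, another small proline-rich gene, at 4213 against 8.61 CPM. *Sptssb*, a subunit of the enzyme that starts sphingolipid synthesis, was in 9 of 9 cells at 1577 CPM and had 0 UMIs in the other kind. *Aqp3*, a water and glycerol channel, stood at 757 against 15.5 CPM, *Mal*, a raft protein of apical membrane transport, at 2573 against 102 CPM, and *Areg*, an EGF family ligand, at 2220.0 against 91.2 CPM. Only some of these genes set the selected cells of set 1 apart from its other epithelium-gated cells. *Sptssb* was found in 22 of 41 of them at 262 CPM (2 UMIs in the other cells), *Sprr2a3* in 18 of 41 (log2 ratio 4.59 [3.78 to 5.52]) and *Mal* in 40 of 41 (1.86 [1.78 to 1.95]). *Wfdc2* (0.15 [0.08 to 0.23]), *Aqp3* (0.07 [-0.04 to 0.17]) and *Areg* (-0.22 [-0.28 to -0.15]) were near the level of the other cells there.

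The *Sprr2f* and *Folr1* cells were led by other genes. *Lcn2*, which encodes the iron-siderophore binding protein lipocalin 2, stood at 1659.7 CPM (1557 to 1768) in set 3 against 50.5 CPM in the *Upk3b* and *Ivl* cells, a log2 ratio of -5.04 [-6.92 to -3.68], at 1192 CPM in set 2, and had 0 UMIs in the 41 cells of set 1. *Cd52*, a small GPI-anchored surface glycoprotein known from lymphocytes and from the epididymis, was at 1243 CPM (1154 to 1337) in 26 of 32 cells of set 3 and at 3844 CPM (3562 to 4143) in 16 of 22 of set 2. It had 0 UMIs in all *Upk3b* and *Ivl* cells, which allows up to 1.04 CPM in set 1 and 37.8 CPM in set 3. No selected cell had both *Upk1a* and *Cd52*. *Plac8* was detected in 22 of 22 and 26 of 32 cells of this kind (sets 2 and 3), at 1097 and 368 CPM, and *Akap12*, a scaffold of protein kinase A, in 21 of 22 and 26 of 32, at 1046 and 589 CPM. *Ptgs2*, the inducible cyclooxygenase, stood at 403 and 613 CPM, *Cst3*, the protease inhibitor cystatin C, at 2429 and 1989 CPM, and *B2m*, the light chain of MHC class I, at 2104 and 1587 CPM against 101 CPM in the *Upk3b* and *Ivl* cells of set 3 and 29.8 CPM in set 1.

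*Cd52* did not come with other leukocyte genes. Of the list of 10 leukocyte genes with a row, 7 were at 0 in the selected cells of set 2 and 5 in those of set 3, and the pan-leukocyte gene *Ptprc* had 0 UMIs in both. *Tyrobp* had 2 and 0 UMIs, *Fcer1g* 0 and 1, and *Lyz2* 0 and 3, against 687 and 725 UMIs of *Cd52*. In set 1 the whole list summed to 1.04 CPM in selected cells, with 7 genes at 0, and to 150.0 CPM in the other epithelium-gated cells.

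**Figure D3:**
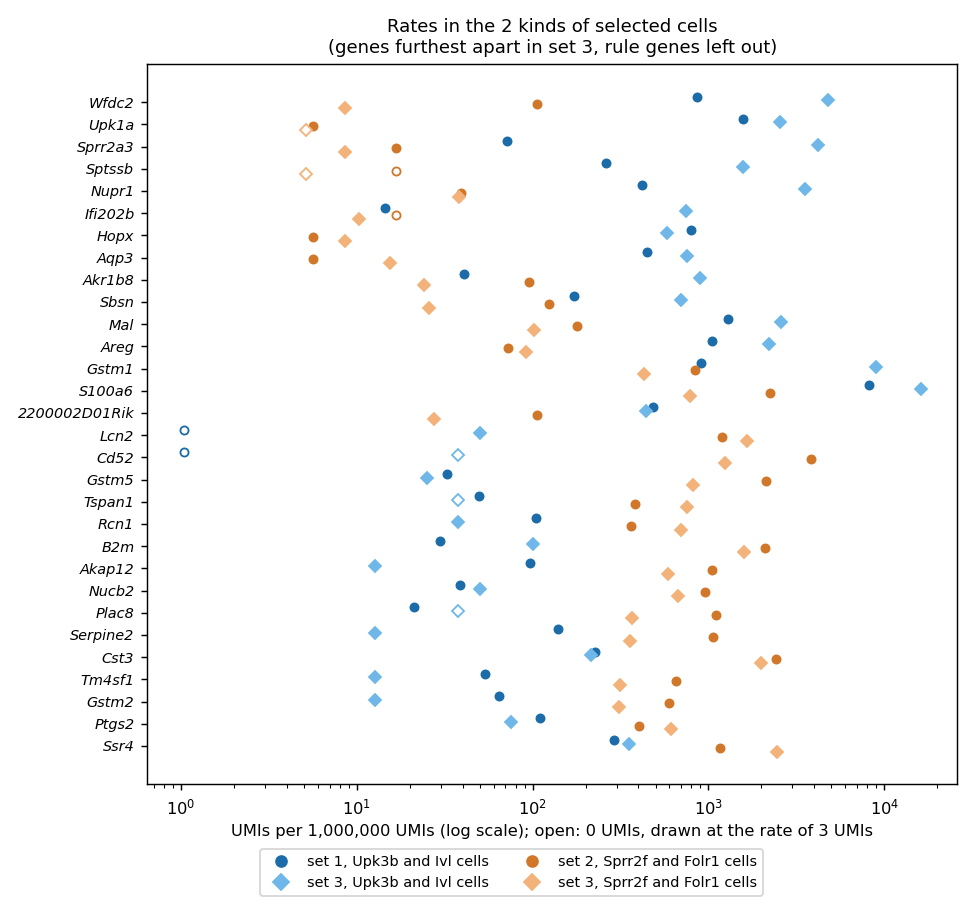
Rates in UMIs per 1000000 UMIs (log scale) of the 30 genes furthest apart between the 2 kinds of selected cells in set 3, rule and gate genes left out, in *Upk3b* and *Ivl* cells of sets 1 and 3 and *Sprr2f* and *Folr1* cells of sets 2 and 3. *Cd52* and *Lcn2* lie at 0 UMIs in set 1 and above 1000 in the *Sprr2f* and *Folr1* cells of both sets, and *Upk1a* lies above 1000 in both sets of *Upk3b* and *Ivl* cells.

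Some transcription factors known from urothelial differentiation differed between the kinds. *Pparg*, a nuclear receptor of urothelial maturation, was detected in 34 of 41 selected cells of set 1 at 116 CPM (103 to 129), against 22.9 CPM in other epithelium-gated cells, and in 3 of 9 *Upk3b* and *Ivl* cells of set 3. It had 0 UMIs in the *Sprr2f* and *Folr1* cells of both sets, which allows up to 16.8 CPM in set 2 and 5.17 CPM in set 3. *Elf5*, an ETS factor of glandular epithelia, showed the reverse in set 3, with 23 of 32 *Sprr2f* and *Folr1* cells at 87.8 CPM and 0 UMIs in the 9 others, while in set 1 it was found in 23 of 41 cells at 39.4 CPM. *Elf3*, an ETS factor of differentiated epithelia, was higher in *Upk3b* and *Ivl* cells (539 CPM in set 1 and 303 in set 3) than in *Sprr2f* and *Folr1* cells (44.8 in set 2 and 53.4 in set 3). *Gata3*, a zinc finger factor of urothelium and other epithelia, was present in both kinds, at 236 CPM in set 1, 106 in set 2, and 101 and 82.6 CPM in the *Upk3b* and *Ivl* cells and the *Sprr2f* and *Folr1* cells of set 3.

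Clusters built without the 10 rule and gate genes show where the cells lay by their other genes. In set 3 the 9 *Upk3b* and *Ivl* cells all fell into cluster 9 (29 cells), led by *Sptssb*, *Sprr2a3*, *Igfbp2*, *Gstm1* and *Upk1a*. Of the 32 *Sprr2f* and *Folr1* cells, 28 fell into cluster 7 (107 cells), led by *Cd52*, the globins *Hbb-bs* and *Hbb-bt*, *Akap12* and *Ptgs2*. The globin UMIs of that cluster came from cells outside the rule, with *Hbb-bs* in 3 of 79 of those (797 UMIs) and in 1 of 28 selected cells (1 UMI). In set 1, by contrast, *Hbb-bs* was found in 41 of 41 selected cells at low values of 0.21 to 1.25, and the part of free RNA there was not tested. No cluster of set 3 held cells of both kinds. In set 2, 20 of 23 selected cells fell into cluster 4, which had 23 cells in all and was led by *Cd52*, *Plac8*, *Nucb2* and *Akr1b7*. Among the nearest neighbours of selected cells, 53.1%, 73.5% and 48.3% were selected cells in sets 1, 2 and 3, against 26.6%, 1.71% and 1.63% of the clustered cells. The 79 cells of cluster 7 outside the rule had *Cd52* at 3052 CPM in 31 of 79 cells and *Lcn2* at 2628 CPM in 74 of 79, against 1452 CPM in 26 of 28 and 1937 CPM in 27 of 28 selected cells, at median depths of 4057 and 15977.5 UMIs. The 20 cells of cluster 9 outside the rule had *Upk1a* at 454 CPM in 7 of 20 against 2561 CPM in 9 of 9, *Wfdc2* at 2491 against 4755 CPM, *Areg* at 1399 against 2220.0 CPM and *Aqp3* at 835 against 757 CPM, at a median depth of 5841.5 UMIs against 6785 in the 9 selected cells.

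**Figure D4:**
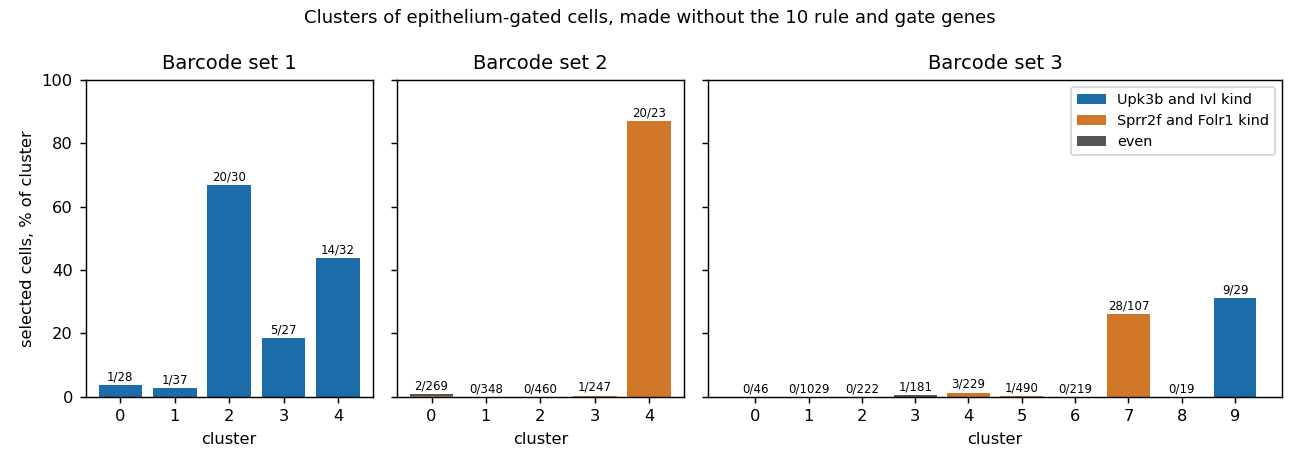
Percent of each cluster made up of selected cells, by kind, in clusters of epithelium-gated cells made within each barcode set without the 10 rule and gate genes; numbers above bars give selected cells over all cells. Selected cells were gathered in clusters 2 and 4 of set 1, cluster 4 of set 2 and clusters 7 and 9 of set 3, with the 2 kinds of set 3 apart.

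The *Upk3b* and *Ivl* cells of set 1 were themselves divided. Of 41 cells, 20 lay in cluster 2 and 14 in cluster 4, at median depths of 51883.5 and 86755 UMIs. Between these, 12.4% of 3127 genes were at least 2-fold higher in cluster 2 and 11.2% at least 2-fold lower, again by size alone and between groups that the clustering itself made. *Sptssb* stood at 618 CPM in cluster 2 (20 of 20 cells) and 6.46 CPM in cluster 4 (1 of 14), whereas *Clca1*, a secreted regulator of chloride channels, stood at 2.48 CPM (1 of 20) and 905 CPM (14 of 14). Over all 41 cells, 19 had only *Sptssb*, 19 only *Clca1*, 3 both and 0 neither. Cells of cluster 2 also had more *Akr1b3* (1169.5 against 57.4 CPM), *Akr1b8* (94.4 against 1.62), *Ivl* (707 against 57.4) and *Pparg* (216 against 29.1). Cells of cluster 4 had more *Upk3bl* (1125 against 63.7 CPM), *Hopx* (1447 against 328), *Elf3* (849.9 against 301) and *Asprv1*, a retroviral-like protease of stratified epithelia (1110.0 against 0.828). *Fabp4*, a fatty acid binding protein gene, led cluster 2 through few cells, with 1234 UMIs in 5 of 20 selected cells. *Upk1a* and *Upk3b* were near equal between them, at 1769.6 and 1724 CPM and at 212 and 225 CPM. The 18 cells of cluster 4 outside the rule had *Upk1a* in 18 of 18 at 872 CPM, below the 14 selected cells, and *Hopx* at 1465 CPM and *Elf3* at 912 CPM, near their values. The 10 cells of cluster 2 outside the rule differed more from its selected cells. They had *Upk1a* in 1 of 10 at 19.1 CPM and *Sptssb* in 2 of 10 at 19.1 CPM, at a median depth of 6847 UMIs. The *Upk3b* and *Ivl* cells of set 3 had *Sptssb* in 9 of 9 and *Clca1* in 1 of 9.

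All selected cells of a set were then set against the other epithelium-gated cells of that set, leaving out the 10 rule and gate genes. Of 4993, 4671 and 5603 genes compared, 168, 448 and 359 were at least 2-fold higher in selected cells of sets 1, 2 and 3 (3.36%, 9.59% and 6.41%), and 338, 298 and 506 at least 2-fold lower (6.77%, 6.38% and 9.03%). Over the 4321 genes compared in every set, 21 were higher in all 3 sets (0.486%) and 32 lower in all 3 (0.741%). Since the cells were selected on related genes, these ratios are a description of the kind of cell. The median log2 ratio over all genes compared was -0.11, 0.15 and -0.06. The balance of higher and lower genes turned with the processing: set 2 had 71 higher and 173 lower when 10 UMIs were expected in selected cells, and set 3 had 459 and 277 with at least 4 markers, 70 and 8 after thinning to 900 UMIs and 33 and 6 by mean deposited values, which gave 11 and 2 in set 1. In the medians of gene lists below, genes with under 3 UMIs in selected cells enter at 3 UMIs, and a median that rests on such a gene is given as an upper limit. A ratio of set 3 sums both kinds, so it can rest on 1 of them, and the genes named next are examples. There *Upk1a*, *Sprr2a3*, *S100a6* and *Wfdc2* were above the other epithelium-gated cells in the *Upk3b* and *Ivl* cells and below them in the *Sprr2f* and *Folr1* cells, with intervals that did not overlap. *Pparg*, *Plin2*, *Sbsn*, *Il1rn*, *Igfbp2* and *Ereg* were above them in the *Upk3b* and *Ivl* cells, and in the *Sprr2f* and *Folr1* cells their intervals overlapped. *Gstm5*, *Lcn2* and *Cd52* were above them in the *Sprr2f* and *Folr1* cells and below them in the *Upk3b* and *Ivl* cells, and *Gstm2* and *Cldn3* were above them in the *Sprr2f* and *Folr1* cells with overlapping intervals in the others. The comparison cells were mixed: their clusters included some led by leukocyte, endothelial, muscle and neuronal genes. Of the urothelial transcription factors, 1 of 10, 2 of 7 and 3 of 9 compared were at least 2-fold higher and 0, 0 and 2 lower (median log2 ratios 0.17, at most 0.20 and 0.65). *Pparg* was the 1 in set 1, *Elf3* and *Gata3* the 2 in set 2, and *Elf3*, *Elf5* and *Pparg* the 3 in set 3, where *Klf4* and *Tbx3* were lower. *Klf4* stood there at 845 CPM in *Upk3b* and *Ivl* cells and 143 CPM in *Sprr2f* and *Folr1* cells, on either side of the 561 CPM of other epithelium-gated cells. Of the other uroplakins, *Upk1a* passed in sets 1 (2.62 [2.52 to 2.71]) and 3 (3.13 [2.89 to 3.37]).

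*Gstm1*, a glutathione S-transferase, led the 20 genes ranked by the smallest of their 3 ratios. It stood at 906, 794 and 1414 CPM in selected cells and at 79.3, 67.2 and 133 CPM in other epithelium-gated cells, log2 ratios of 3.52 [3.35 to 3.68], 3.56 [3.29 to 3.82] and 3.41 [3.30 to 3.53]. Its level was not even within set 3, where *Upk3b* and *Ivl* cells had 8930.4 CPM and *Sprr2f* and *Folr1* cells 430.4. *Akr1b3*, an aldose reductase, stood at 526, 1348 and 1435 CPM against 98.0, 62.3 and 174, and its paralog *Akr1b8* gave log2 ratios of 3.07, 3.54 and 3.39. In set 3 *Akr1b8* stood at 896 CPM in *Upk3b* and *Ivl* cells, 24.1 CPM in *Sprr2f* and *Folr1* cells and 12.1 CPM in other epithelium-gated cells. *Gstm1*, *Akr1b3* and *Akr1b8* have close copies whose reads may be divided. Genes of retinoid and xenobiotic metabolism were at least 2-fold higher in 5 of 9, 6 of 9 and 7 of 12 compared (medians of the log2 ratios 1.12, 2.97 and 1.60). *Gstm2*, *Adh1* (an alcohol and retinol dehydrogenase) and *Akr1b8* were higher in all 3 sets, *Fmo5* (a flavin monooxygenase) in sets 1 and 3 at log2 ratios of 2.93 and 5.33, and *Gstm5* in sets 2 and 3 at 1964 and 699 CPM. In set 3 *Fmo5* was found in 6 of 9 *Upk3b* and *Ivl* cells, at 404 CPM over the 9, and in 2 of 32 *Sprr2f* and *Folr1* cells. *Aldh1a3*, a retinal dehydrogenase, was at least 2-fold lower in set 1 (-1.65 [-2.19 to -1.15]) and higher in sets 2 (1.45 [1.06 to 1.82]) and 3 (1.92 [1.68 to 2.16]).

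Further genes higher in all 3 sets were *Ldhb* (lactate dehydrogenase B; log2 ratios 2.02, 2.72 and 2.11), *Mal* (1.86, 3.89 and 3.26), *Plin2*, which coats lipid droplets (2.18, 2.12 and 1.85), *Elovl6*, a fatty acid elongase (1.69, 2.64 and 1.19), and *Tspan8*, a tetraspanin (1.05, 3.05 and 1.96). *Pdzk1ip1*, a small membrane protein, ranged most widely, from 1.58 [1.35 to 1.81] in set 1 to 5.81 [5.18 to 6.47] in set 2. *Pglyrp1*, a peptidoglycan recognition protein, gave 1.44, 4.07 and 3.55, and *Sbsn*, suprabasin of stratified epithelia, 1.33, 2.26 and 1.38, though -0.50 in set 3 among the 8 cells with at least 4 markers (1 of them an *Upk3b* and *Ivl* cell). *Ptgr1*, *Ggh*, *BC029722*, *2200002D01Rik* and *0610040J01Rik* lay between 1.07 and 2.3 in every set. In set 3 *2200002D01Rik* stood at 441 CPM in *Upk3b* and *Ivl* cells, 27.5 CPM in *Sprr2f* and *Folr1* cells and 15.2 CPM in other epithelium-gated cells. *Il1rn*, the interleukin-1 receptor antagonist, was higher in sets 1 (1.41) and 3 (2.42) but had only 2 UMIs in the selected cells of set 2.

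*Sprr1a*, a cornified envelope precursor outside the rule, was detected in 41 of 41, 21 of 23 and 39 of 42 selected cells at 7048, 1145 and 1899 CPM, against 2824, 550.4 and 835 CPM. In set 3 it stood at 9284 CPM in the 9 *Upk3b* and *Ivl* cells. In the 28 *Sprr2f* and *Folr1* cells of cluster 7 it was at 853 CPM (774 to 938), near the level of other epithelium-gated cells. Of the other cornified envelope genes compared, 3 of 5, 1 of 3 and 2 of 4 were at least 2-fold higher, *Sprr1a* in each set, and 1, 1 and 0 lower (median log2 ratios 1.32, -0.11 and 0.80). In set 3 the ratio of *Sprr1a* was -0.77, from 3 UMIs in 6 selected cells, when all cells were thinned to 900 UMIs. *Sprr3* had 54 UMIs in 7 of 41 selected cells of set 1, and *Lor* (loricrin, of the outermost epidermis) was lower there (-1.31 [-1.53 to -1.08]). Of the superficial and intermediate surface genes with a row (no keratin among them), 1 of 5, 1 of 3 and 0 of 3 were higher, and 0, 2 and 1 lower (medians 0.15, -1.09 and -0.79). *Anxa9* was higher in set 1 (1.49 [1.24 to 1.75]), *Lypd3* in set 2 (1.04 [0.40 to 1.62]), and *Cyp2f2* was lower in set 3 (-2.72 [-3.63 to -1.94]). The calcium-binding *S100a1* was higher in every set (1.99, 2.06 and 1.02) and *S100a6* in sets 1 (2.05) and 3 (1.24), the 2 of 8, 1 of 9 and 2 of 9 S100 genes that passed 2-fold upward, with 0, 0 and 1 lower (medians 0.37, at most 0.08 and -0.08). The *S100a6* ratio of set 3 was -0.60, from 5 UMIs, after the same thinning, and without it *S100a6* stood at 16095 CPM in the 9 *Upk3b* and *Ivl* cells but at 782 CPM in the 32 *Sprr2f* and *Folr1* cells, below the 1102 CPM of other epithelium-gated cells. Of WAP and host defence genes, 1 of 2, 1 of 4 and 2 of 6 were higher and 0, 0 and 2 lower (medians 0.81, at most -0.31 and 0.30). *Clca1* was the 1 in set 1, *Lcn2* the 1 in set 2, and *Lcn2* and *Wfdc2* the 2 in set 3. There *Wfdc2* rested on the 9 *Upk3b* and *Ivl* cells, since the 32 *Sprr2f* and *Folr1* cells had 8.61 CPM against 222 CPM in other epithelium-gated cells, and *Lcn2* rested on the *Sprr2f* and *Folr1* cells.

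**Figure D5:**
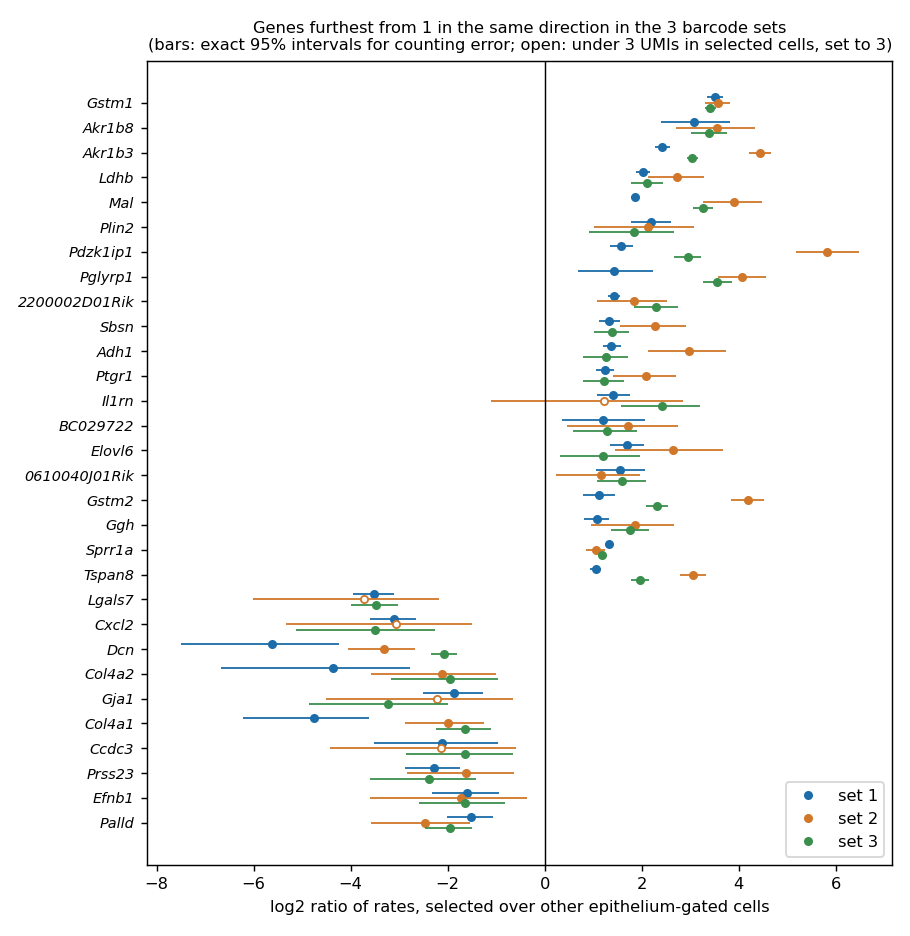
Log2 ratio of rates in selected over other epithelium-gated cells, by barcode set, for the 20 genes highest and the 10 lowest by their least extreme set, with exact 95% intervals for counting error and open symbols where selected cells had under 3 UMIs, set to 3. *Gstm1* lay between 3.41 and 3.56 in the 3 sets and *Lgals7* at -3.51 and -3.48 in sets 1 and 3, while *Pdzk1ip1* ranged from 1.58 to 5.81.

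Some genes of basal cells were lower, though most of the list did not pass. Of the basal and hemidesmosome list, 5 of 13, 5 of 12 and 6 of 13 genes compared were at least 2-fold lower, and 0, 0 and 1 (*Igfbp2*) higher (median log2 ratios -0.50, at most -0.62 and -0.92). *Lgals7*, galectin-7 of stratified epithelia, stood at 18, 10.2 and 55.9 CPM in selected cells and 205, 202 and 626 CPM in other epithelium-gated cells, which gave log2 ratios of -3.51 [-3.95 to -3.11] and -3.48 [-3.98 to -3.03] for sets 1 and 3, with 2 UMIs in selected cells of set 2. *Lamb3*, a chain of the laminin of hemidesmosomes, gave -1.12, -1.23 and -2.66, and *Apoe*, apolipoprotein E, -4.01, -1.25 and -2.41. *Dst*, the plakin that anchors keratin at hemidesmosomes, was lower in sets 2 (-3.61 [-5.24 to -2.39]) and 3 (-1.83 [-2.13 to -1.54]) and at -0.32 [-0.55 to -0.09] in set 1. In set 3 it stood at 74.0 CPM in *Sprr2f* and *Folr1* cells, 580.2 CPM in *Upk3b* and *Ivl* cells and 513 CPM in other epithelium-gated cells. The collagen IV genes *Col4a1* (-4.76, -2.0 and -1.65) and *Col4a2* (-4.37, -2.12 and -1.96), the connexin *Gja1*, *Ccdc3*, the serine protease *Prss23* (-2.29, -1.61 and -2.39), the ephrin *Efnb1* (-1.61, -1.73 and -1.64) and the actin-binding *Palld* (-1.53, -2.46 and -1.96) were also among the 10 lowest. *Gja1* was at -1.87 and -3.23 and *Ccdc3* at -2.12 and -1.64 in sets 1 and 3, with 1 and 0 UMIs in selected cells of set 2. *Dcn*, a stromal proteoglycan, and *Cxcl2*, a chemokine, completed the 10, and the *Cxcl2* ratio of set 1 turned to 0.46 when the comparison was limited to 71 epithelium-gated cells with at least 3 UMIs of *Cdh1* and *Cldn4* and none of *Col1a2* and *Col3a1*.

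Of tight junction and desmosome genes, 2 of 9, 3 of 9 and 3 of 10 were at least 2-fold higher and 0, 1 and 1 lower (median log2 ratios 0.43, 0.27 and 0.14). *Cldn23*, a claudin, passed in every set (1.04, 1.21 and 1.47), and *Cldn3* in sets 2 (2.16 [1.92 to 2.39]) and 3 (1.15 [1.00 to 1.30]), while the desmosomal *Pkp1* was lower in sets 2 (-1.62) and 3 (-1.81). Of channels and transporters, 1 of 7, 2 of 7 and 1 of 8 were higher and 2, 2 and 2 lower (medians 0.07, at most 0.68 and at most -0.42). *Fxyd4*, a regulator of the sodium pump, was higher in sets 2 (5.86 [5.12 to 6.62]) and 3 (3.22 [2.81 to 3.61]) and lower in set 1 (-1.05 [-1.58 to -0.53]). *Scnn1a*, a subunit of the epithelial sodium channel, was higher in set 1 (1.98 [1.38 to 2.60]), where 68.7 CPM stood in cluster 4 and 0.828 CPM in cluster 2.

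Genes known from the prostatic lumen were also present. Of that list, 1 of 5, 3 of 7 and 1 of 8 genes compared were at least 2-fold higher and 1, 0 and 0 lower (median log2 ratios -0.94, 0.61 and 0.48). *Cd24a* stood at 2602 and 1722 CPM in the *Sprr2f* and *Folr1* cells of sets 2 and 3 and at 455 and 366 CPM in the *Upk3b* and *Ivl* cells of sets 1 and 3. *Prom1*, prominin 1 of apical membranes, was found in 13 of 22 and 23 of 32 *Sprr2f* and *Folr1* cells and in 4 of 41 and 0 of 9 of the others. *Pax8*, the only gene with a row from the seminal vesicle and Wolffian duct list, had 3, 3 and 2 UMIs in the selected cells of the 3 sets, at 1.04, 15.3 and 2.94 CPM against 15.6, 0 and 0.249 CPM in the other epithelium-gated cells.

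The summed markers of fibroblasts, smooth muscle, endothelium, leukocytes, mesothelium and neuroendocrine cells were below their level in stroma-gated cells, apart from the leukocyte list in sets 2 and 3 (3516 and 1076 CPM against 22.4 and 106 CPM, nearly all *Cd52*) and the mesothelial list in set 2. Fibroblast genes (12 with a row) summed to 29.1, 234 and 238 CPM in the 3 sets against 5775, 5279 and 6697 CPM in stroma-gated cells, with 4, 8 and 2 genes at 0. Smooth muscle genes (6) summed to 28.4, 331 and 396 CPM against 1348, 11147 and 9817 CPM, with 1 gene at 0 in each set. Endothelial genes (8) summed to 9.69, 45.8 and 2.94 CPM against 346, 173 and 158 CPM, with 5, 6 and 6 at 0. Mesothelial genes (6), relevant because mesothelium carries *Upk3b*, summed to 2.42, 50.9 and 16.2 CPM against 129, 43.0 and 60.3 CPM in stroma-gated cells, with 3, 3 and 4 at 0, and they were absent from 35 of 41, 15 of 23 and 36 of 42 cells. Neuroendocrine genes (7) summed to 117, 45.8 and 1.47 CPM against 399, 52.4 and 35.5 CPM, with 2, 5 and 6 at 0. Single cells differed, since the fibroblast sum reached 4627 CPM and the smooth muscle sum 8888 CPM in the highest cell of set 3, with medians of 0 and 41.5 CPM. The part of stromal RNA in these cells was not tested.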

How the data were processed

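Values were UMI-based single cell profiles of 3 libraries, counted by the authors with Cell Ranger 3.1.0 on mm10 per the labels' processing notes; the methods state that multiplets, empty droplets and cells with much mitochondrial RNA were removed. Labels and methods name different versions of the 3' kit. Although named as counts, the deposited values are natural log values, ln(1 + 10000 times UMIs over the cell's total), from 0 to 7.94, so the design's alternative for such values applied. UMIs and totals were recovered, and 100% of 11120281 values above 0 came out whole within 0.05. Of 9784 rows, 1 partly empty row and 2 that share a name were left out. The table is held in part, so many genes were not analysed here. Column endings are tied to no sample. Cell totals summed to 20511786, 15929745 and 27444044 UMIs in sets 1, 2 and 3.

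Cells were selected by the rule, and genes were compared by summed UMIs per 1000000, with sums under 3 UMIs set to 3, at least 50 UMIs over both groups and a size limit of 2-fold, reached with at least 3 UMIs in the higher group. Intervals are exact 95% Poisson, Clopper-Pearson or binomial split intervals and cover counting error only. The procedure was tested on simulated data with 600 comparison cells in each set. There 1.61%, 3.16% and 2.15% of unchanged genes were called at least 2-fold lower in sets 1, 2 and 3, and 0.159%, 1.06% and 0.0817% higher. Of simulated 4-fold decreases 100%, 64.7% and 96.8% were called, and of 4-fold increases 100%, 97.8% and 100%. Named genes were the rule and gate genes, members of the 24 fixed lists (2 with the highest rate and 2 with the largest ratio, others being named after their values were seen), the 20 highest and 10 lowest genes over the sets, and the genes furthest apart between kinds or clusters, chosen after values were seen. Members and lists were chosen with earlier results of these data known. Clustering (scanpy 1.11.5) used 2000 variable genes, 20 of 30 principal components and a Leiden resolution of 0.5. Alternatives changed the number of markers, depth by thinning, the filters, the scale and the comparison cells. Scrublet marked 3, 0 and 1 cells as doublets, too few to be informative. Promoters and positions come from RefSeq for GRCm38.p6, in which 94.8% of the rows were found.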

Additional observations from a re-analysis of the deposited data

Results flagged for a closer look

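*EGFP*, a row outside the comparisons above, had 85 UMIs in the selected cells of set 1, 29.4 CPM (23.5 to 36.4), in 24 of 41 cells. This is above the limit of 3 UMIs that a count of 0 allows. Other epithelium-gated cells of set 1 stood at 36.4 CPM (log2 ratio of selected over other cells -0.31 [-0.71 to 0.08]) and stroma-gated cells at 967 CPM, with 49.6% and 56.4% of cells with a UMI at median depths of 32362 and 17242 UMIs, against 58.5% of selected cells at 62401. In sets 2 and 3 it had 0 UMIs in selected cells, which allows up to 15.3 and 4.42 CPM. The part of RNA from other cells in these UMIs was not tested.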

How the results depend on the processing

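No paired analysis was possible because a single library stood for each age. The shares of selected cells among all cells moved with the number of markers, with depth and with the filter on cells. They were 8.75% (set 1) and 1.12% (set 3) with at least 2 markers, 3.13%, 0.206% and 0.0946% with at least 4, and 3.52% in set 1 without *Upk3b*. Thinned to 900 UMIs they were 0%, 0.120% and 0.0783%, and to 3000 UMIs 0.847%, 0.919% and 1.27% of the 708, 1414 and 2202 cells deep enough, a smaller part of sets 2 and 3 than of set 1. With at least 1000 genes per cell they were 5.86%, 1.93% and 3.21%. Counts of genes at least 2-fold higher and lower moved most on the scale of mean deposited values (11 and 2, 59 and 9, 33 and 6 in sets 1, 2 and 3). After thinning to 900 UMIs they were 91 and 19 in set 2 and 70 and 8 in set 3, each from 6 selected cells, and set 1 had none left. With no minimum of UMIs set 1 gave 440 and 887 and set 3 gave 563 and 506. Asking for 10 UMIs expected in selected cells, chosen after seeing the data, gave 71 and 173 in set 2 and 144 and 332 in set 3, so that the balance turned toward lower genes in set 2, whereas it turned toward higher genes in sets 1 and 3 by mean values and in set 3 after thinning, with no minimum or with at least 4 markers. Strict comparison cells, also chosen after seeing the data, gave 209 lower genes in set 1, and at least 4 markers gave 459 higher and 277 lower genes in set 3. Of 1114 gene ratios recomputed, 913 stayed within their interval, 196 moved and 5 turned: *Cxcl2* in set 1 (0.46, strict comparison cells), *Sbsn* (-0.50) and *Wfdc2* (-2.73) in set 3 with at least 4 markers, where 8 cells remained, and *Sprr1a* (-0.77) and *S100a6* (-0.60) in set 3 thinned to 900 UMIs. Of the 8 cells of set 3 with at least 4 markers, 1 was an *Upk3b* and *Ivl* cell. Ratios whose direction the floor of 3 UMIs alone would set were left out. The cause of the other moves was not tested.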

Other observations

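Gene lists not described above are given here by the same counts. Of mitotic and S phase genes, 0 of 13, 2 of 12 and 2 of 13 compared were at least 2-fold higher in selected cells and none lower (median log2 ratios -0.33, at most 0.59 and 0.68), with *Cdk1* at 29.4, 50.9 and 45.6 CPM against 36.9, 30.5 and 22.5 CPM in other epithelium-gated cells. In set 1 the mitotic kinase gene *Cdk1* had 63 UMIs in the 20 selected cells of cluster 2 and 0 in the 14 of cluster 4. Of early response and stress genes, 0, 1 and 0 of 11 were higher and 0, 1 and 0 lower (medians -0.14, -0.37 and -0.23), and *Jun*, a subunit of AP-1, was at 0.02, -0.98 and -0.23 on the log2 scale.

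Of EGF family ligands and receptors, 1 of 6, 0 of 6 and 2 of 7 were higher and 1, 1 and 1 lower (medians 0.12, at most -0.27 and 0.28). *Ereg* (epiregulin) was higher in sets 1 (1.23 [0.98 to 1.49]) and 3 (1.04 [0.09 to 1.85]), *Epgn* (epigen) lower in set 1 (-1.99 [-2.80 to -1.26]), and *Areg* (amphiregulin) lower in set 2 (-1.96 [-2.88 to -1.19]). Of serpin B and kallikrein genes, 2 of 9, 1 of 4 and 0 of 4 were higher and 3, 1 and 1 lower (medians 0.01, at most 0.46 and at most -0.04). *Serpinb5* (maspin) was lower in every set (-1.32, -2.84 and -1.1), and *Klk10* was higher in set 1 (1.39 [0.96 to 1.82]), with 1 UMI in set 2 and 0 in set 3.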
